A study of Mus musculus with 12 samples.

Results

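TRBV31, called Vβ14 in the older naming, is 1 of the 24 beta-chain V segments that carried productive reads in 12 T cell receptor libraries of sorted mouse thymocytes. Its members are the rows of the deposited beta-chain clone tables whose best V hit is TRBV31, which are 70096 of 593523 rows and 157481 of 1263557 beta-chain (TRB) reads (12.5%). A join is the CDR3, the loop encoded where V, D and J segments meet, and a join was called productive when a CDR3 was read in full, in frame and without a stop. Of the TRBV31 reads, 153097 were productive and 3808 were nonproductive, and 576 had a CDR3 that was not covered. The productive reads fell into 56918 distinct nucleotide joins that encode 43602 distinct amino acid joins.

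The libraries came from 3 Chrna9 KO mice and 3 wild-type (WT) mice, and thymocytes of the CD4 (CD4SP) and the CD8 (CD8SP) single-positive gates were sorted from each mouse. This gives 4 groups of 3 libraries: KO CD4SP, WT CD4SP, KO CD8SP and WT CD8SP. Chrna9 encodes the alpha 9 subunit of nicotinic acetylcholine receptors, and the series title concerns cholinergic control of negative selection. The mice were matched as 2 pairs of males and 1 pair of females, with 1000000 CD4SP and 330000 CD8SP cells sorted per sample. Strain, age and the kind of Chrna9 deletion are not given in the sources used here, and the labels name no treatment. The libraries hold receptor RNA only, so loss of Chrna9 could not be checked in them.

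A beta-chain gene is built in the thymus by joining a D to a J segment and then a V segment to that product, with bases trimmed from the ends and others inserted between them. TRBV31 is the exception among mouse beta V segments in its position, since it lies downstream of the constant genes in the opposite orientation and joins by inversion. Thymocytes whose receptors engage MHC class II or class I mature as CD4SP or CD8SP cells, and those with strongly self-reactive receptors are removed. A nonproductive join encodes no receptor chain.

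In the RefSeq gene table for GRCm38.p6, the build of mm10, TRBV31 lies on chromosome 6 from 41557693 to 41558371. That is 9512 bases beyond the end of the constant gene TRBC2 (41546730 to 41548181), while the other 23 V segments lie between 40891296 and 41281990, before TRBD1 (41533201 to 41533212). The table gives no strand.

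The following sequences were read from the deposited clone tables and show the loops that every TRBV31 chain shares and the start of its CDR3. The CDR1 form shown was carried by 99.6% of TRBV31 reads and the CDR2 form by 99.7%. The CDR3 start is shown to 13 bases, the most common end of the V alignment in joins without a trimmed V base. It is shown again with the 2 bases in capitals that follow most often. In some joins, such as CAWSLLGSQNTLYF, the V alignment runs further.
TRBV31 CDR1: gggaaatcaagccctaac
TRBV31 CDR2: tctattactgttggc
TRBV31 CDR3 start, aligned: tgtgcctggagtc
TRBV31 CDR3 start, observed: tgtgcctggagtcTA
Among clonotypes that kept all 13 aligned bases, T came next in 66.2% to 70.4% in the 12 libraries, and among those A followed in 58.0% to 63.7%. The 13 aligned bases encode the residues CAWS and start the next codon, which encodes leucine (L) when T follows, as in the 5 joins shown next.

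The joins below carry the results on single clonotypes. For each, the nucleotide version with the most reads is shown. Capitals mark the bases between the aligned end of V and the aligned start of J. These hold D and inserted bases, and their first bases may also come from V.
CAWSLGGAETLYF with TRBJ2-3: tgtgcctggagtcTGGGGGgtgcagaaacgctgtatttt
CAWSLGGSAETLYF with TRBJ2-3: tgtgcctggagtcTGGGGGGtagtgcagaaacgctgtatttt
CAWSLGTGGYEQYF with TRBJ2-7: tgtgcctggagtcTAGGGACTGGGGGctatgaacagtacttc
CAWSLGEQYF with TRBJ2-7: tgtgcctggagtcTGGGGgaacagtacttc
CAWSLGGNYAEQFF with TRBJ2-1: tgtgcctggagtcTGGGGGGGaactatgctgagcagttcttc
All 5 keep the 13 aligned V bases and continue with T and a run of G, after an A in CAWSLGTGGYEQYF, and they differ in the length of that stretch and in the J segment.

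Library depth ranged from 76193 to 136885 TRB reads. TRBV31 contributed 16291 to 21946 productive reads in 7674 to 9109 clonotypes per CD4SP library, and 5234 to 7693 reads in 1871 to 2410 clonotypes per CD8SP library. No TRBV31 row had a second V segment of equal score. The gate used CD4 and CD8 alone, and other cells in it were counted by their receptors. Reads of the invariant alpha chain of natural killer T cells were 5.26% to 8.49% of TRA reads in CD4SP libraries and 0.0495% to 0.0897% in CD8SP libraries. Reads of the alpha chain of mucosal-associated invariant T cells were 0.0126% to 0.0464% in all libraries, and delta-chain reads were 0.686% to 1.16%. The part of these cells in the CD4SP and CD8SP differences below was not tested. Reads reflect both cell number and receptor RNA per cell, which cannot be told apart here.

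TRBV31 took a large share of the CD4SP beta repertoire and a small share of the CD8SP one. It made up 21.0%, 21.6% and 22.0% of productive TRB reads in KO CD4SP libraries and 21.1%, 21.5% and 22.0% in WT CD4SP libraries. In KO CD8SP libraries it made up 5.38%, 5.56% and 5.68%, and in WT CD8SP libraries 5.65%, 5.42% and 5.73%. TRBV31 was the most used V segment in CD4SP libraries and ranked 8 of 24 in CD8SP libraries. The means were 21.5% ± 0.427 in CD4SP and 5.57% ± 0.144 in CD8SP (SD, n = 6 each), a ratio of 3.87. TRBV31 was chosen by its productive shares in CD4SP and CD8SP cells, so the ratio is a description without a test.

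Comparing genotypes shows whether TRBV31 was carried more or less often in mice without Chrna9. The KO and WT shares overlapped in both lineages. In CD4SP cells the means were 21.5% ± 0.499 in KO and 21.5% ± 0.455 in WT libraries (SD, n = 3 each), and the fitted KO over WT fold was 1.00 with a 95% interval of 0.969 to 1.03. In CD8SP cells they were 5.54% ± 0.151 in KO and 5.602% ± 0.161 in WT libraries, and the fold was 0.989 with an interval of 0.957 to 1.02. By the quasi-likelihood test of edgeR, adjusted by Benjamini-Hochberg over 36 beta segments, the adjusted p was 0.996 in CD4SP and 0.895 in CD8SP cells, and 0.861 for the difference between the lineages. Of all segments tested, 0% were called in either lineage.

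**Figure D1:**
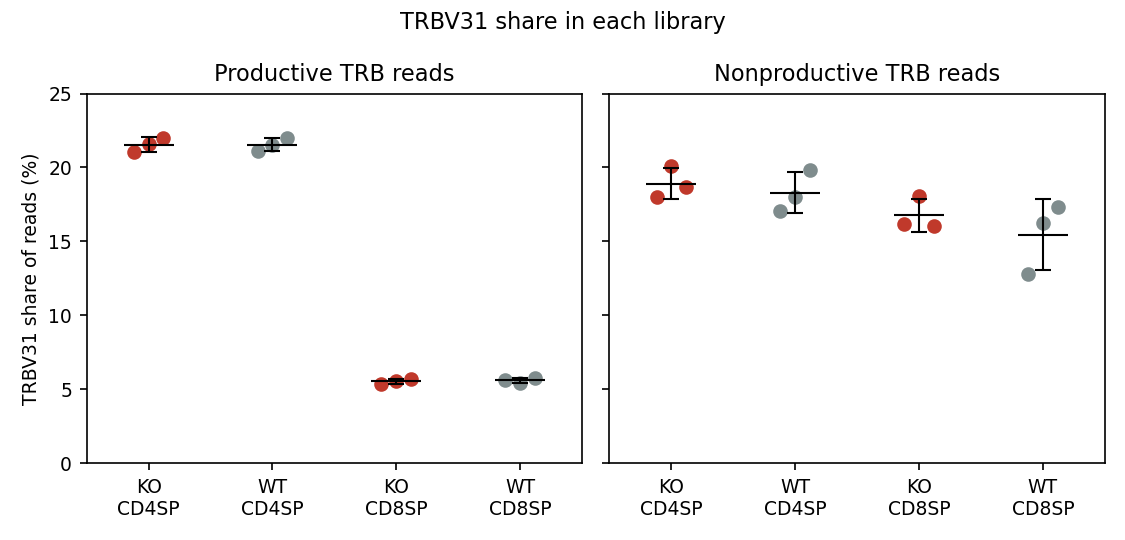
TRBV31 as a percent of productive and of nonproductive TRB reads in each library, with points for the 3 mice of a group and bars for the group mean and SD. Productive shares sit near 21.5% in both CD4SP groups and near 5.57% in both CD8SP groups, while nonproductive shares of all groups lie between 12.8% and 20.1%.

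Among nonproductive joins, TRBV31 was the most used V segment in both lineages. Its share of nonproductive TRB reads was 18.0%, 20.1% and 18.7% in KO CD4SP libraries and 17.1%, 18.0% and 19.8% in WT CD4SP libraries. It was 16.2%, 18.0% and 16.03% in KO CD8SP libraries and 12.8%, 16.2% and 17.3% in WT CD8SP libraries. CD4SP and CD8SP values overlapped across mice, with means of 18.6% ± 1.16 and 16.1% ± 1.81 (SD, n = 6 each). The share was higher in CD4SP cells in 6 of 6 mice, by 2.5004 percentage points (exact two-sided sign-flip permutation test, p = 0.03125, the smallest that 6 mice can give; adjusted p = 0.0382 over 11 measures). On the log2 scale the CD4SP over CD8SP difference was 0.21 for nonproductive and 1.95 for productive reads. These shares rest on 163 to 426 nonproductive TRBV31 reads per library.

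The call on the nonproductive share was lost without joins that lie 1 base from a larger productive join of the same library. Such joins held 9.76% to 16.2% of nonproductive TRBV31 reads in CD4SP and 3.66% to 6.51% in CD8SP libraries. Without them, an alternative chosen after seeing the data, the shares were 17.2% in CD4SP and 16.5% in CD8SP cells, higher in 4 of 6 mice (exact sign-flip permutation p = 0.28125; adjusted p = 0.309). With out-of-frame joins alone the difference was 2.30 percentage points (adjusted p = 0.0382 by the same exact test).

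**Figure D2:**
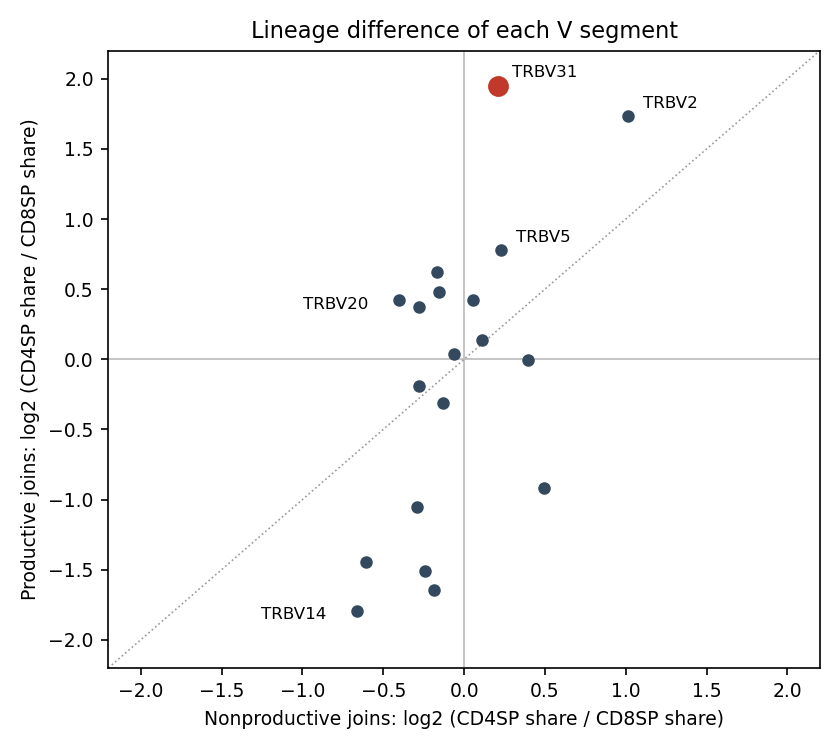
CD4SP over CD8SP difference of each V segment on the log2 scale, among productive reads on the vertical axis and among nonproductive reads on the horizontal axis. TRBV31 stands at 1.95 among productive and 0.21 among nonproductive reads.

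Within TRBV31 itself, 1.86% ± 0.065 of covered reads were nonproductive in CD4SP and 3.99% ± 0.520 in CD8SP libraries (SD, n = 6 each), lower in CD4SP cells in 6 of 6 mice. The other V segments together ran the other way, at 2.24% in CD4SP and 1.26% in CD8SP libraries. The denominators of these percentages hold the productive reads by which TRBV31 was chosen, so they are a description without a test.

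The V segments whose share followed TRBV31 most closely over the 12 libraries were TRBV5 (Pearson r = 0.992 of log2 percent), TRBV2 (r = 0.986) and TRBV20 (r = 0.977), and the one that ran most opposite was TRBV14 (r = -0.998). These come from 18 other segments with a mean share of at least 0.5%. The 12 points fall into CD4SP and CD8SP clusters and the shares of a library sum to a whole, so the coefficients describe the lineage split. Mean productive shares were 17.7% in CD4SP and 10.3% in CD8SP for TRBV5, 0.963% and 0.290% for TRBV2, 3.69% and 2.76% for TRBV20, and 2.24% and 7.76% for TRBV14. Among nonproductive reads the CD4SP over CD8SP difference on the log2 scale was 0.23 for TRBV5, 1.02 for TRBV2, -0.40 for TRBV20 and -0.66 for TRBV14.

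TRBV31 was joined to all 12 functional J segments, and its partners differed between CD4SP and CD8SP cells. TRBJ2-7, the most 3′ of the J segments, was the most frequent partner in both lineages, with 19.8% ± 0.409 of productive TRBV31 reads in CD4SP and 18.97% ± 0.959 in CD8SP libraries (SD, n = 6 each). TRBJ1-5 was the least frequent, with 1.93% and 2.68%. In the edgeR quasi-likelihood test over 269 V-J pairs, with each pair read relative to the reads of its V segment, 7 of the 12 TRBV31 pairs passed an adjusted p of 0.05. That compares with 45.7% of all pairs tested, so the count is close to the background.

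TRBJ2-5, TRBJ1-4 and TRBJ2-3 were higher in CD4SP cells. TRBJ2-5 took 10.6% to 11.8% of TRBV31 reads in CD4SP libraries and 7.76% to 9.44% in CD8SP libraries, without overlap (log2 difference 0.39, SE 0.043, adjusted p = 1.99e-11 by edgeR). TRBJ2-3 took 12.3% to 13.4% in CD4SP and 8.83% to 11.6% in CD8SP libraries (log2 0.31, SE 0.040, adjusted p = 1.58e-09 by edgeR). TRBJ1-4 averaged 7.42% in CD4SP and 5.91% in CD8SP libraries (log2 0.34, adjusted p = 5.21e-07). Over all pairs, 25.7% were higher in CD4SP cells.

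TRBJ2-1, TRBJ1-1, TRBJ1-5 and TRBJ1-2 were lower in CD4SP cells. TRBJ2-1 took 9.64% to 10.5% of TRBV31 reads in CD4SP libraries and 13.6% to 16.6% in CD8SP libraries (log2 -0.52, SE 0.042, adjusted p = 1.53e-16 by edgeR). TRBJ1-1 took 7.61% to 8.53% in CD4SP and 10.4% to 11.98% in CD8SP libraries (log2 -0.46, SE 0.045, adjusted p = 4.62e-13 by edgeR). Neither pair of ranges overlapped. TRBJ1-5 differed by -0.47 (adjusted p = 6.13e-06) and TRBJ1-2 by -0.17 (adjusted p = 0.00573) on the log2 scale. Over all pairs, 20.1% were lower in CD4SP cells. The 5 pairs that did not pass had log2 differences of 0.07 (TRBJ2-7), 0.08 (TRBJ2-4), 0.09 (TRBJ1-3), 0.10 (TRBJ1-6) and 0.13 (TRBJ2-2). TRBJ2-2 passed without KO mouse 3 (log2 0.17, adjusted p = 0.0358 by edgeR) and TRBJ1-3 without KO mouse 2 (log2 0.17, adjusted p = 0.0386 by edgeR). With each clonotype counted once, 9 of the 12 pairs passed against 52.5% of all pairs, TRBJ2-2 (log2 0.17, adjusted p = 0.0121) and TRBJ2-4 (log2 0.13, adjusted p = 0.0131) among them.

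The other V segments had J differences of their own between the lineages, many in the direction of TRBV31. On the log2 scale theirs were 0.19 for TRBJ2-5, 0.25 for TRBJ1-4 and 0.24 for TRBJ2-3. They were -0.43 for TRBJ2-1, -0.20 for TRBJ1-1 and -0.36 for TRBJ1-2. Of the called partners, TRBJ1-5 alone did not go the same way, at 0.04 against -0.47 in TRBV31. For TRBJ2-1 they stood at 10.6% in CD4SP and 14.3% in CD8SP libraries, and for TRBJ2-7 at 22.8% and 25.5%. When the lineage difference of TRBV31 was set against that of the other V segments for each J on the log2 scale, 6 of the 12 J segments reached the smallest p of 0.03125 and none passed after adjustment (exact sign-flip permutation test over 6 mice, adjusted p = 0.0625). The largest of these were TRBJ1-5 at -0.51, TRBJ2-4 at -0.27 and TRBJ1-1 at -0.26. This comparison was added after seeing the data.

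TRBV31 also differed from the other V segments of the same libraries in which J segments it used. In CD4SP libraries 11 of the 12 J shares differed (exact sign-flip permutation test over 6 mice, adjusted p = 0.0341, all but TRBJ1-5), and in CD8SP libraries 8 of 12 did (adjusted p = 0.0469). With each clonotype counted once, 10 of 12 passed in CD4SP and 0 in CD8SP libraries, where 7 had an unadjusted p under 0.05 (exact sign-flip permutation test, smallest adjusted p = 0.0536). TRBJ1-2 was at 6.09% of TRBV31 reads against 3.51% of other reads in CD4SP cells, and at 6.84% against 4.499% in CD8SP cells. TRBJ1-4 was at 7.42% against 5.29% and TRBJ2-3 at 12.7% against 10.4% in CD4SP cells. TRBJ2-7 was lower, at 19.8% against 22.8% in CD4SP and 18.97% against 25.5% in CD8SP cells. The whole TRBJ2 cluster held 68.7% of TRBV31 reads against 74.6% of other reads in CD4SP cells, and 66.1% against 74.6% in CD8SP cells. Between lineages the TRBJ2 share of TRBV31 was 2.57 percentage points higher in CD4SP cells, in 5 of 6 mice (exact sign-flip permutation p = 0.0625).

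**Figure D3:**
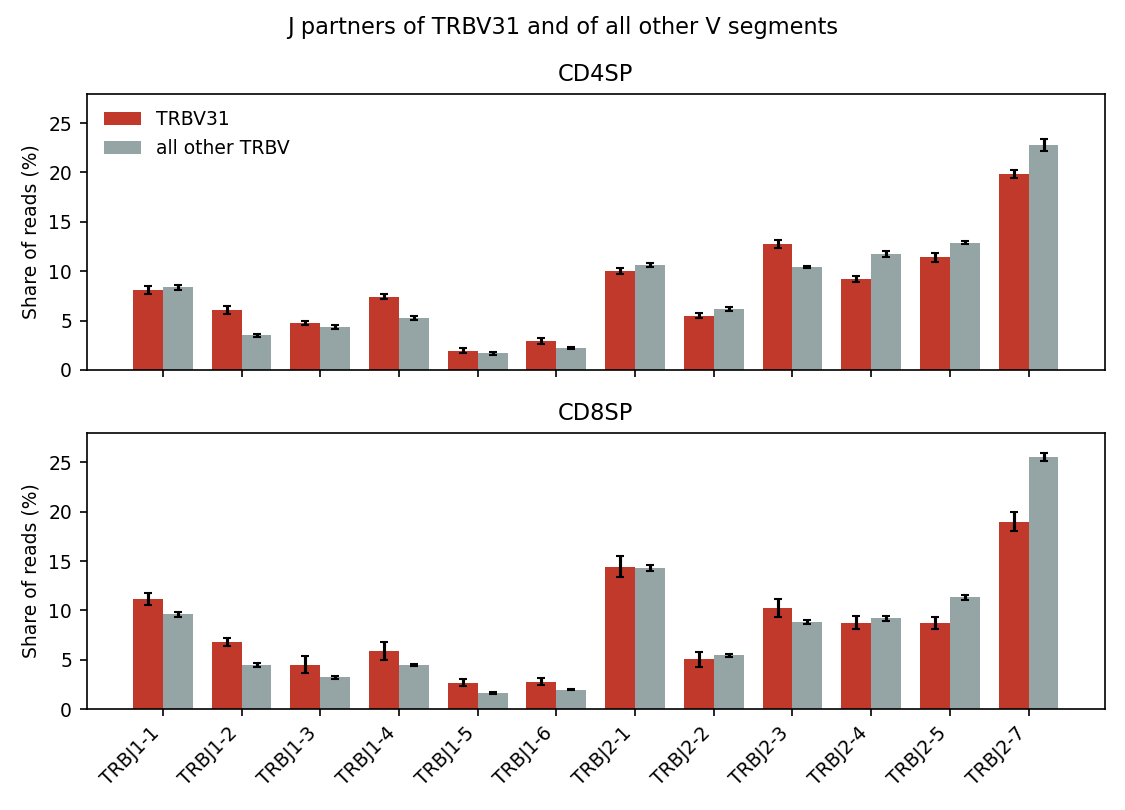
Percent of productive reads joined to each of the 12 J segments, for TRBV31 beside all other V segments. CD4SP libraries are in the upper panel and CD8SP libraries in the lower, with bars for the mean and SD over 6 libraries. Mean TRBV31 shares of TRBJ2-1 and TRBJ1-1 were lower in CD4SP than in CD8SP libraries, and those of TRBJ2-5 and TRBJ2-3 were higher.

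D calls differed between TRBV31 and the rest. Among TRBJ2 joins with a D call, TRBD2 was named in 71.0% of TRBV31 reads against 57.7% of other reads in CD4SP cells, and in 70.9% against 57.1% in CD8SP cells (exact sign-flip permutation test over 6 mice, adjusted p = 0.03125 and 0.0391). Between lineages this share of TRBV31 differed by 0.0926 percentage points (exact sign-flip permutation p = 0.906). A D call was made for 75.1% of TRBV31 reads in CD4SP and 79.0% in CD8SP libraries.

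Genotype did not move J partners past the threshold. Of the 12 TRBV31 pairs, 0 were called between KO and WT in CD4SP and 0 in CD8SP cells by edgeR's quasi-likelihood test, as for 0% of all pairs in each. TRBJ2-7 took 19.96%, 20.1% and 19.1% of TRBV31 reads in KO CD4SP and 20.1%, 20.2% and 19.6% in WT CD4SP libraries, and 17.6%, 20.1% and 19.05% in KO CD8SP and 19.6%, 18.1% and 19.4% in WT CD8SP libraries. TRBJ2-5, the 1 pair with an unadjusted p under 0.05, took 8.79%, 9.18% and 9.44% in KO CD8SP and 7.76%, 8.91% and 8.18% in WT CD8SP libraries, and those groups overlapped. At an unadjusted p under 0.05 the TRBV31 counts were 0 and 1, against 2.97% of all pairs in each lineage, and DESeq2 called 0 and 0, as for 0% of all pairs. The fitted KO minus WT log2 differences ranged from -0.04 to 0.09 in CD4SP and from -0.15 to 0.14 in CD8SP cells.

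TRBV31 CDR3s were shorter in CD4SP than in CD8SP cells. The mean length was 13.54 to 13.63 residues in CD4SP and 13.72 to 13.82 in CD8SP libraries, without overlap. The difference was -0.160 residues, in 6 of 6 mice (exact sign-flip permutation test, p = 0.03125, adjusted p = 0.0382 over 11 measures). The other V segments averaged 13.78 residues in CD4SP and 13.76 in CD8SP libraries, and the lineage difference of TRBV31 was 0.187 residues below theirs, which is -0.187 (adjusted p = 0.0391). Joins of 13 residues held 25.6% ± 0.532 of TRBV31 reads in CD4SP and 18.9% ± 0.761 in CD8SP libraries (SD, n = 6 each). Joins of 16 residues held 5.17% ± 0.208 in CD4SP and 9.36% ± 0.712 in CD8SP libraries. The commonest length was 14 residues in both, with 31.3% and 29.5%.

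The joins also differed in how their ends were trimmed and filled. From the 13 aligned V bases, 0.904 bases were trimmed on average in CD4SP and 1.12 in CD8SP cells, a difference of -0.212. Inserted bases in joins with a D call averaged 2.90 in CD4SP and 3.24 in CD8SP cells, a difference of -0.334. Both had the same direction in 6 of 6 mice (adjusted p = 0.0382 by the exact sign-flip permutation test). The most common aligned end of TRBV31 is 2 bases short of the 15-base observed run. Levels of trimmed and inserted bases were therefore not set against those of the other V segments. Counted from the end of that run, an alternative added after seeing the data, the inserted bases averaged 2.37 in CD4SP and 2.76 in CD8SP cells. The lineage difference in inserted bases lay below that of the other V segments by either count, at -0.256 from the aligned end and -0.308 from the observed run (adjusted p = 0.0391 each by the exact sign-flip permutation test). D-called joins with no inserted base, counted from the aligned end, were 13.7% of TRBV31 reads in CD4SP and 11.3% in CD8SP libraries.

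**Figure D4:**
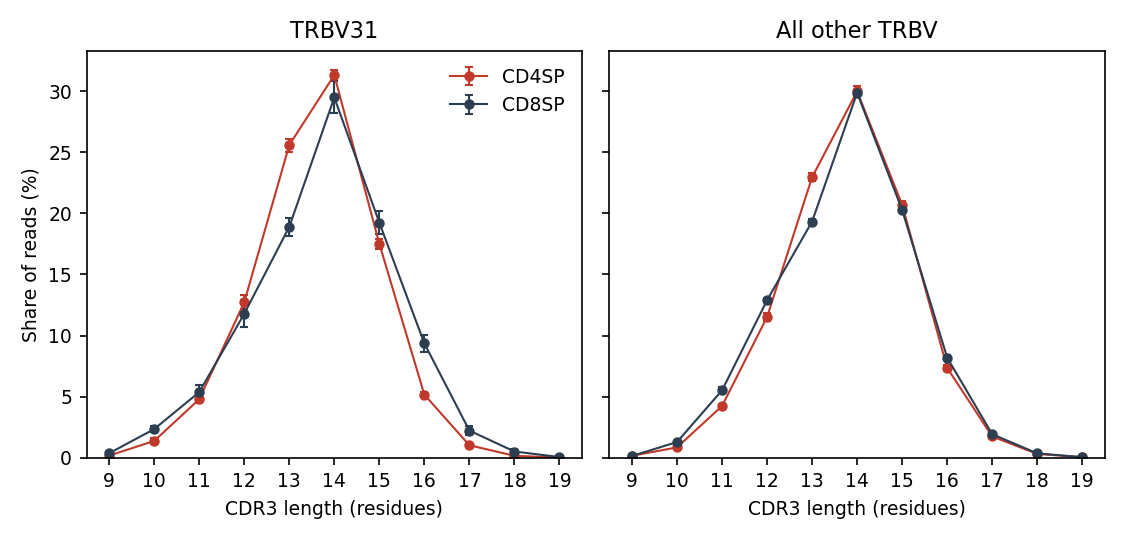
Percent of productive reads at each CDR3 length in residues, for TRBV31 and for the other V segments, with CD4SP and CD8SP means and SD over 6 libraries. TRBV31 in CD4SP cells has more joins of 13 residues (25.6%) and fewer of 16 residues (5.17%) than in CD8SP cells (18.9% and 9.36%).

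The residues that V, D and inserted bases encode differed too. Joins that began with CAWS, the residues encoded by the 13 aligned V bases, held 79.2% of TRBV31 reads in CD4SP and 72.9% in CD8SP libraries. CAWSL held 42.9% in CD4SP and 39.9% in CD8SP libraries, and CAWSR held 8.31% and 5.59%. CAWSP ran the other way, with 12.6% and 13.7%. The net charge of the CDR3 averaged -0.596 in CD4SP and -0.543 in CD8SP cells, a difference of -0.0532. The mean hydropathy of residues 6 and 7, which lie near the tip of the loop, was -0.968 in CD4SP and -1.14 in CD8SP cells, a difference of 0.167. Both differences had the same direction in 6 of 6 mice (adjusted p = 0.0382 by the exact sign-flip permutation test) and differed from those of the other V segments (adjusted p = 0.0391).

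At the 5 positions around the middle of the CDR3, 47 of 100 TRBV31 residue and position pairs passed an adjusted p of 0.05 between CD4SP and CD8SP cells in edgeR's quasi-likelihood test. Over all V segments 25.6% of 2099 such features passed. Shares of the residues at a position sum to a whole, so these counts are not independent, and TRBV31 had more reads than most V segments in CD4SP cells. Of the TRBV31 features 19 were higher and 28 lower in CD4SP cells, against 13.2% and 12.4% of all features. The counts by residue class below were not made for the other V segments, so they only describe TRBV31.

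Of 10 features of arginine and lysine, the positively charged residues, 4 were lower and 0 higher in CD4SP cells. The 6 that did not pass had log2 differences from -0.59 (lysine 2 positions after the middle) to 0.28 (lysine 1 position after it). Arginine 2 positions before the middle was at 8.33% to 9.82% of TRBV31 reads in CD4SP and 11.1% to 14.7% in CD8SP libraries (log2 -0.48, SE 0.040, adjusted p = 1.54e-30 by edgeR), and the ranges did not overlap. In the other V segments that residue averaged 10.1% in both lineages. Lysine 1 position before the middle averaged 0.470% in CD4SP and 0.872% in CD8SP libraries (log2 -0.83, adjusted p = 1.19e-05).

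Of 5 cysteine features, 2 were lower in CD4SP cells and 0 were higher. A cysteine at the middle was carried by 2 reads of 1 clonotype in the 6 CD4SP libraries and by 44 reads of 10 clonotypes in the CD8SP libraries, with at least 1 clonotype in each of the 6 (adjusted p = 8.06e-07 by edgeR). Per TRBV31 read, the CD8SP over CD4SP ratio was 63.9 with an exact 95% interval of 16.7 to 544. That interval covers counting error only and takes the reads of a clonotype as independent. The CD4SP reads were in 1 library, so the feature could be tested only through the CD8SP libraries, where it was high. Its call and ratio are therefore a description and no support for a difference. One position further on, cysteine had 27 reads in CD4SP and 45 in CD8SP libraries (adjusted p = 0.00333). The other 3 cysteine features did not pass. Cysteine 2 positions after the middle had 35 reads of 17 clonotypes in CD4SP and 2 reads of 1 clonotype in CD8SP libraries (log2 2.44, adjusted p = 0.134 by edgeR), and the 2 positions before the middle had log2 differences of -1.06 and -1.69. All these counts are low, and the CD4SP libraries held more TRBV31 reads than the CD8SP libraries.

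Of 35 hydrophobic features 12 were lower and 4 higher in CD4SP cells. Phenylalanine and tryptophan, both bulky aromatic residues, were lower 2 positions after the middle (log2 -0.813 and -1.005, adjusted p = 0.00362 and 0.0251 by edgeR). The tryptophan call did not hold when the KO mouse numbered 3 was left out (log2 -0.70, adjusted p = 0.204), and likewise without WT mouse 1 (adjusted p = 0.115) or KO mouse 1 (adjusted p = 0.0603). Isoleucine 1 position before the middle was higher, at 1.04% to 1.45% in CD4SP and 0.506% to 1.00% in CD8SP libraries (log2 0.75, SE 0.133, adjusted p = 2.65e-07 by edgeR).

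Small and polar residues held 11 of the 19 higher features, with 8 lower among 40. Of 10 features of the acidic residues aspartate and glutamate, 4 were higher and 2 lower. Serine at the middle was at 12.9% to 13.99% in CD4SP and 9.13% to 10.7% in CD8SP libraries (log2 0.46, SE 0.037, adjusted p = 1.69e-32 by edgeR). Glutamine 1 position after the middle averaged 9.16% in CD4SP and 6.64% in CD8SP libraries (log2 0.46), and histidine 2 positions before it 1.08% and 0.759% (log2 0.50). Aspartate 2 positions after the middle averaged 9.41% in CD4SP and 7.35% in CD8SP libraries (log2 0.36). All 3 passed (adjusted p = 1.52e-23, 0.00165 and 8.75e-15 by edgeR). In the other V segments serine at the middle averaged 11.5% in CD4SP and 9.58% in CD8SP libraries and that aspartate 9.45% and 8.76%.

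**Figure D5:**
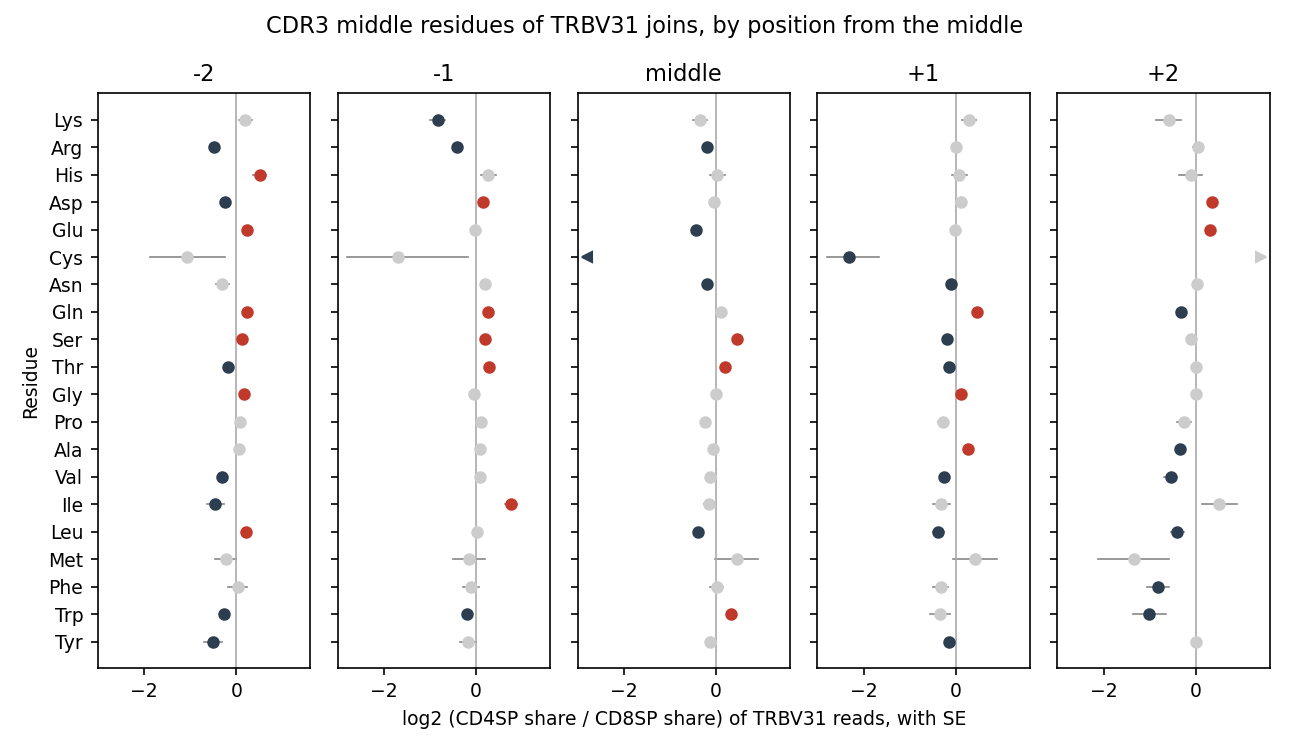
CD4SP over CD8SP difference on the log2 scale, with SE, of each residue at the 5 positions around the middle of TRBV31 CDR3s, in red where higher in CD4SP cells and called, dark where lower and called, and grey where not called. Triangles mark values beyond the axis, and cysteine at the middle is the lowest at -5.41.

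KO and WT CDR3s did not differ past the threshold. Of 100 TRBV31 residue features 0 were called in CD4SP and 0 in CD8SP cells by edgeR, as for 0% of all features. At an unadjusted p under 0.05 the counts were 0 in CD4SP and 13 in CD8SP cells, against 3% and 5.72% of all features. DESeq2 called 0 and 0, against 0.0476% and 0% of all features. In CD8SP cells edgeR called 1 when the CD8SP library of KO mouse 3 was left out (0.048% of all features). The CDR3 length averaged 13.57 ± 0.029 residues in KO and 13.61 ± 0.022 in WT CD4SP libraries, and 13.74 ± 0.026 in KO and 13.76 ± 0.053 in WT CD8SP libraries (SD, n = 3 each), and the groups overlapped in both lineages. With 3 pairs no exact test of these measures can go under 0.25.

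Most TRBV31 joins were private to a library. Of the nucleotide joins 92.7% and of the amino acid joins 82.7% were found in 1 of the 12 libraries, while 0 nucleotide joins and 2 amino acid joins were found in all 12. These 2 were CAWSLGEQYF with TRBJ2-7 and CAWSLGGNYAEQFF with TRBJ2-1, both shown above. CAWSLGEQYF had 11 nucleotide versions, and the version shown was in 8 libraries.

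The leading amino acid joins were listed by their mean share in each group, which by itself favours a lower share in the other lineage. Of those tested, only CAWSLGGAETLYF passed between CD4SP and CD8SP cells, with the limits given below. In CD4SP cells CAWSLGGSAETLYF held 0.172% of TRBV31 reads, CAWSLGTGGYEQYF 0.161%, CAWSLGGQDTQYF 0.125%, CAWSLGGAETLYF 0.117% and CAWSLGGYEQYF 0.113%. In CD8SP cells those joins held 0.0936%, 0.0236%, 0.0386%, 0% and 0.0185%. The joins that led in CD8SP cells were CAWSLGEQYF, at 0.0469% in CD4SP and 0.226% in CD8SP libraries, and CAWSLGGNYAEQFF, at 0.0837% and 0.125%. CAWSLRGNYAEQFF (0.0114% and 0.111%) and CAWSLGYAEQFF (0.0129% and 0.0995%), both with TRBJ2-1, followed. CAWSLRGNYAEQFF had 24 of its 44 CD8SP reads in WT mouse 2, and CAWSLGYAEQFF was found in 3 CD8SP libraries. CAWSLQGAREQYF, among the leading KO CD8SP joins, had all its 28 reads in 1 library. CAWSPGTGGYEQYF was among the first 5 of WT CD4SP (0.112% over all CD4SP and 0.0381% over CD8SP libraries), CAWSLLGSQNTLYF of KO CD8SP (0.0119% and 0.0742%), and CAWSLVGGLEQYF (0.00187% and 0.0625%) and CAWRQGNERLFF (0.00330% and 0.0549%) of WT CD8SP.

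Of 1747 TRBV31 joins with enough reads to test, 1 passed between CD4SP and CD8SP cells in edgeR's quasi-likelihood test, against 0.036% of all 11117 joins (0.027% higher and 0.009% lower in CD4SP cells), and 138 had an unadjusted p under 0.05, against 5.61% of all joins. It was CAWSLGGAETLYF with TRBJ2-3. It had 32, 21 and 14 reads in KO CD4SP libraries, 28, 6 and 31 in WT CD4SP libraries, and 0 in all CD8SP libraries. It therefore had enough reads to test through the CD4SP libraries alone, the group where it was high. For that reason its call and fold are a description and no support for a difference. Its reads came from 14 nucleotide versions, of which the one shown was in 5 libraries. Against a floor of 3 counts over the CD8SP group (0.00765%), its share was at least 15.1-fold higher in CD4SP cells (adjusted p = 0.00274). Without the WT mouse numbered 3 the adjusted p was 0.0712, and with no filter on low counts it was 0.864.

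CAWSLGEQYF had 13, 7 and 12 reads in KO CD4SP and 8, 4 and 9 in WT CD4SP libraries, and 14, 22 and 23 in KO CD8SP and 14, 6 and 8 in WT CD8SP libraries. As a share of TRBV31 reads it averaged 0.0469% ± 0.0175 in CD4SP and 0.226% ± 0.109 in CD8SP libraries (SD, n = 6 each), and its difference did not pass (log2 -2.17, SE 0.805, adjusted p = 0.640 by edgeR). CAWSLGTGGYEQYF, with 63 of its 185 CD4SP reads in KO mouse 2, did not pass either (log2 3.31, SE 0.886, adjusted p = 0.162). Between KO and WT, 0 TRBV31 joins passed in either lineage by edgeR, as for 0% of all joins, with 8 in CD4SP and 28 in CD8SP cells at an unadjusted p under 0.05, against 0.54% and 1.19% of all joins. DESeq2 called 18 and 33 of the 1747 TRBV31 joins, against 2.05% and 1.55% of all joins, so the TRBV31 count was below that share in CD4SP and close to it in CD8SP cells.

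The largest TRBV31 clonotypes were small. In KO CD8SP libraries the largest held 0.344%, 0.334% and 0.325% of TRBV31 reads, 22 reads in each. In WT CD8SP libraries they held 0.287%, 0.245% and 0.260%, from 15, 16 and 20 reads. At an equal depth of 5234 TRBV31 reads the means were 0.338% in KO and 0.279% in WT CD8SP libraries, without overlap. The difference was in 3 of 3 pairs, with an exact sign-flip permutation p of 0.25, the smallest that 3 pairs can give. The 3 KO clonotypes were different joins, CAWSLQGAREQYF and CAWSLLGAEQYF with TRBJ2-7 and a further one with TRBJ2-3, and each nucleotide sequence was found in that 1 library. In CD4SP libraries the largest had 13 to 22 reads, and the same nucleotide version of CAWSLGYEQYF led in KO mouse 1 and WT mouse 2 and was found in 8 libraries. Between lineages, distinct clonotypes at that depth were 3948 in CD4SP and 2061 in CD8SP libraries. With 1 mouse left out this difference was 1849 to 1910, and it lay 1800 to 1847 above that of the other V segments. The depth was every TRBV31 read of WT CD8SP library 1, while CD4SP libraries held 16291 to 21946. The draw thus thinned CD4SP reads, and those of the other V segments, far more than CD8SP reads of TRBV31. Without molecule counts the difference cannot be read as one of diversity. More CD4SP cells were sorted, and TRBV31 was chosen by a share that was larger in CD4SP cells. The parts of these 2 in the difference were not tested.

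Some CD8SP joins of TRBV31 were also found in CD4SP libraries. Of the nucleotide clonotypes of a CD8SP library, 6.10% to 8.73% were also in the CD4SP library of that mouse, which is 1.69% to 2.55% of the CD4SP list. On average 2.90% to 3.15% of them were in the CD4SP library of another mouse. The same-mouse share was the higher one in 6 of 6 mice, and this difference was not tested. For the other V segments the means were 3.19% of the CD8SP list in the same mouse and 1.74% in other mice. Of their CD4SP list, 3.008% to 3.765% were shared in the same mouse, which is above the TRBV31 range. The order of TRBV31 and the other V segments thus depended on the list used as denominator. TRBV31 lists held 7674 to 9109 clonotypes in CD4SP and 1871 to 2410 in CD8SP libraries. Those of the other V segments held 33603 to 42854 and 34870 to 44394.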

How the data were processed

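The authors sorted thymocytes by CD4 and CD8, extracted RNA, used the SMARTer mouse TCR kit for libraries and a MiSeq for sequencing, per the labels' protocols. Clonotypes were assembled with MiXCR, whose version is not given in the sources used here, per the series design text, and the build was mm10 per the submitters' processing notes. The deposited values were counts of reads per clonotype. A deposited fraction, the count over the total of its file, served only as a check. No molecule counts were used, so the interval of the cysteine ratio and the floors cover counting error only. The KO over WT fold intervals come from the SE of the edgeR fit, which takes in the spread between libraries.

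Reads were summed per segment, V-J pair, residue position and amino acid join, and each table was tested whole with edgeR 4.0.16 in R 4.3.3 (quasi-likelihood test, Benjamini-Hochberg adjustment, threshold 0.05). Features needed 10 reads in total and reads in at least 3 libraries. Pairs, residues and joins were read relative to their V segment's reads in that library. CD4SP and CD8SP fits had the mouse as a block. Genotype fits used all 12 libraries and blocked on replicate number, since the authors compared paired mice, and took the 2 libraries of a mouse as independent. Per-library measures had exact two-sided sign-flip permutation tests, adjusted within each contrast, and diversity used 20 draws of 5234 reads. Residues were placed by their distance, up to 2, from the middle of the CDR3. Other steps ran in Python 3.11.15 with scipy 1.17.1, and DESeq2 1.42.0 was an alternative. The fits were tested on simulated data. Nothing says more of the mice than pairs by sex, and which number was female is not given in the sources used here.

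TRBV31, its lists and its tests were chosen with earlier results of these data known. The text names every J partner, the V segments most and least alike, the 5 leading joins of each group, joins found in all libraries, at most 5 called features per direction, and the largest clonotype of a library. Arginine 2 positions before the middle was added after its values were seen. Segment positions came from the RefSeq table, which matched 40 of 40 segments.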

Additional observations from a re-analysis of the deposited data

How the results depend on the processing

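With TMM factors the KO minus WT difference of the TRBV31 share in CD4SP cells turned to 0.0249 on the log2 scale. It ranged from -0.00886 to 0.00713 when 1 CD4SP library was left out. In CD8SP cells it ranged from -0.0406 to 0.00742 when 1 CD8SP library was left out. The CD4SP over CD8SP ratio of the share was 4.22 without clonotypes of 1 read and 3.57 with each clonotype counted once. Between the lineages, 2 TRBV31 joins were called by DESeq2, 0 with no filter and 3 with each clonotype counted once, and 0 to 1 when 1 mouse was left out. Between KO and WT, DESeq2 called 18 joins in CD4SP and 33 in CD8SP cells. Residue calls in CD8SP cells were 0 to 1 when 1 CD8SP library was left out. J shares against the other V segments had 0 calls in CD8SP cells with each clonotype counted once. There 7 J segments had an unadjusted p under 0.05 by the exact sign-flip permutation test, with a smallest adjusted p of 0.0536. Segments at the smallest possible p of 0.03125 pass or fail together, so a small change can take this count to 0. With 5 mice an exact test cannot go under 0.0625, so every comparison of measures or J shares over 6 mice had 0 calls when 1 was left out, which says nothing of stability. The CD4SP minus CD8SP difference reversed for TRBJ1-3, to -0.00472 with each clonotype counted once and over a range of -0.0146 to 0.168 with 1 mouse left out, and for the TRBD2 share, to -0.7005 and over -0.364 to 0.430. The sign of inserted bases against other V segments in CD4SP cells depended on where V was taken to end. Counted from the aligned end, TRBV31 lay 0.478 to 0.492 above them with 1 mouse left out. Counted from the observed run, an alternative chosen after seeing the data, the difference was -0.0498. The results therefore make no such comparison of levels. CDR3 length against other V segments in CD8SP cells turned to 0.00893, and TRBJ2-1 to -0.0148, without clonotypes of 1 read. For measures, the KO minus WT comparison left out 1 same-numbered pair of mice at a time. In CD4SP cells the values then spanned 0 for the nonproductive share (-0.104 to 1.51) and the largest clonotype (-0.00908 to 0.00860). In CD8SP cells they did so for CDR3 length (-0.0506 to 0.0204). With 1 mouse left out, TRBV31 minus other V in CD8SP cells spanned 0 for hydropathy (-0.000395 to 0.0304) and TRBJ2-1 (-0.274 to 0.313). The causes were not tested. The sorted cell number, 1000000 against 330000, and the read depth differed between the lineages in every mouse.

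The pairing of KO and WT mice by number could not be settled from the data. Deviations from the group means of same-numbered libraries correlated at -0.0435 to 0.191 and those of other numbers at -0.191 to 0.178. CD4SP and CD8SP libraries of the same mouse correlated at only -0.0529 to 0.136, so this check could miss true pairs. Without the replicate block the KO minus WT share difference was -0.000354 on the log2 scale in CD4SP and -0.0164 in CD8SP cells, and no call changed. With the replicate number in place of the mouse as the block, 2 joins and 7 J partners were called between the lineages.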
